A study of Homo sapiens with 10 samples.

Results

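The erythroid transcription factors described here are KLF1, GFI1B, TAL1, LMO2, LDB1, NFE2, ZFPM1, GATA2 and CBFA2T3, factors and cofactors that set the gene expression of red cell precursors. They were taken by name, with earlier results of these data known, and are 9 of the 20535 genes listed for every library. The 10 libraries are RNA-seq of K562, a human erythroleukemia line, and the question of the series is how the transcriptome responds when HS2, an enhancer of the β-globin locus control region, is perturbed.

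Each of the 5 groups has 2 libraries. The control cells carried sgGal4, an sgRNA that the paper calls nontargeting. For ChIP-seq the paper also removed peaks in regions that were enriched with this sgRNA. The titles of the control libraries name no effector, so what these cells carried beside the sgRNA is not stated there. The other 4 groups carried all of the HS2 sgRNAs combined and differed in what was brought to the enhancer, which was the repressor domain KRAB on dCas9 (dCas9-KRAB), the histone demethylase LSD1 on dCas9 (dCas9-LSD1), dCas9-LSD1 with KRAB on the RNA-binding protein MCP (enCRISPRi-LK), or dCas9-KRAB with LSD1 on MCP (enCRISPRi-KL). All were populations sorted for fluorescent reporters of lentiviral vectors, with the dCas9 fusions under doxycycline control, so each library is a pool of cells with different integrations. The libraries are described as poly(A)-selected and directional in the labels, whereas the paper names the Ovation system. Levels are given in TPM, a length-normalised share of all transcripts in a library scaled to a fixed total, and the number of reads behind them is unknown.

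In red cell precursors, GATA1 binds DNA together with a complex of TAL1, LMO2 and LDB1, which occupies many erythroid enhancers and promoters, HS2 among them, and GATA2 holds much of this role earlier in the lineage. KLF1 activates adult globin and membrane genes, and NFE2 binds the locus control region as a dimer with a small Maf protein. ZFPM1 (FOG1) is the cofactor that links GATA1 to the NuRD complex, CBFA2T3 (ETO2) is a corepressor within the TAL1 complex, and GFI1B is a repressor that works through LSD1, the enzyme also used here as an effector.

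The labels were read against the genes of the effectors before any comparison. KDM1A, the gene of LSD1, was at 25.2 and 33.5 TPM in the sgGal4 libraries, 29.2 and 27.7 with dCas9-KRAB, 104.7 and 84.2 with dCas9-LSD1, 27.4 and 30.6 with enCRISPRi-LK, and 26.8 and 26.6 with enCRISPRi-KL. ZNF10, the source of a KRAB domain in wide use, was at 0.97 and 1.89 TPM with sgGal4, 1.18 and 3.80 with dCas9-KRAB, 128 and 136 with dCas9-LSD1, 36.8 and 31.5 with enCRISPRi-LK, and 365 and 360 with enCRISPRi-KL. Both genes were high in the libraries labelled dCas9-LSD1, ZNF10 was not high in those labelled dCas9-KRAB, and KDM1A was not high in either group labelled enCRISPRi. HBE1, the embryonic β-like globin gene at the locus that HS2 controls, had group means of 1498 TPM with sgGal4, 727 with dCas9-KRAB, 1003 with dCas9-LSD1, 507 with enCRISPRi-LK and 373 with enCRISPRi-KL. The effector is taken from the label in each group, and every direction below is that of libraries so labelled. Of the erythroid markers, 12 of 12 had a mean of at least 1 TPM, against 2 of 10 granulocyte and monocyte and 1 of 7 lymphocyte markers. A value of 0 does not show absence in these files, since PGK1 and UBA1, used by nearly every cell, and the NuRD gene MTA1 were at 0 in all 10 libraries. The control libraries also stand apart from each other, since mitochondrial genes held 53.6% of the listed TPM in sgGal4 replicate 1 and 43.7% in replicate 2, against 39.9% to 46.6% in the other 8 libraries.

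All 9 genes were measured in all 10 libraries and passed the filter for testing, a mean of at least 1 TPM. NFE2 had the highest mean over the libraries, at 116 TPM, followed by GATA2 at 79.0, CBFA2T3 at 62.7, LDB1 at 48.6, GFI1B at 40.5, KLF1 at 38.8, LMO2 at 18.7, TAL1 at 13.4 and ZFPM1 at 8.22 TPM. NFE2 was also the steadiest, with a ratio of 1.31 between its highest and lowest library, and ZFPM1 the least steady, with a ratio of 6.17. The levels by library show that KLF1 is the one gene of the 9 whose control libraries lie below all 8 libraries of the other groups without overlap, as those of 661 of all 10127 genes tested do (6.53%).

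**Figure D1:**
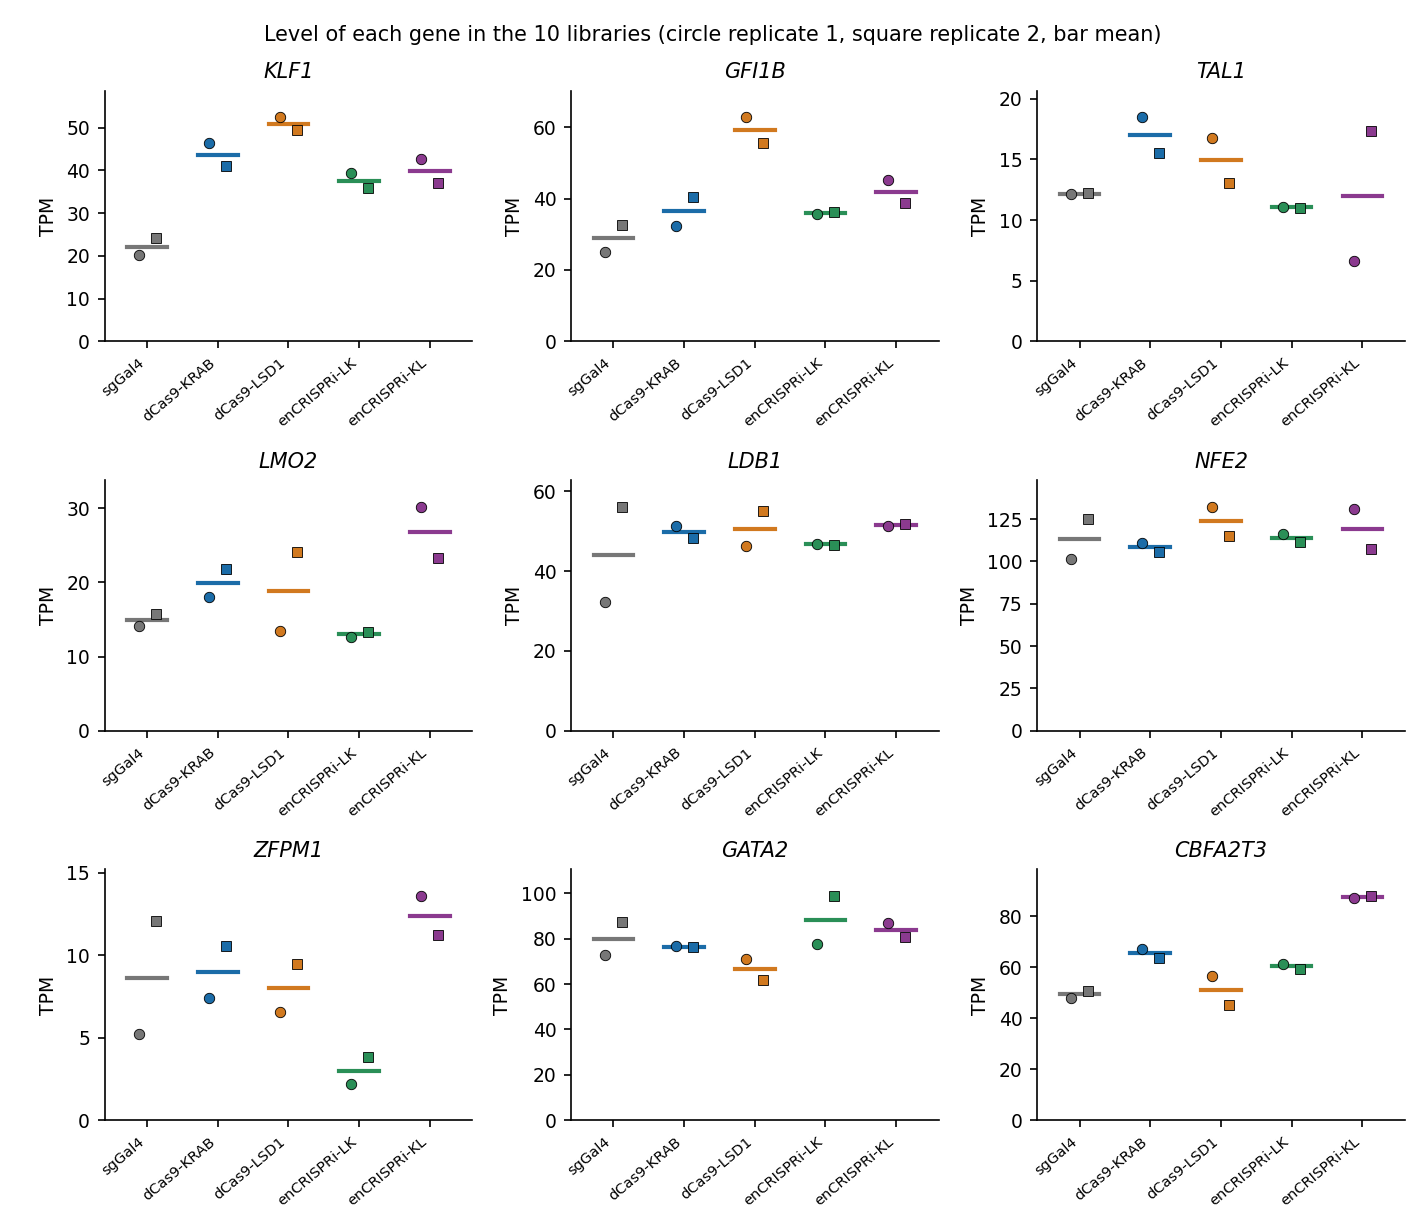
TPM of each of the 9 genes in the 10 libraries (y axis, from 0, with its own scale for each gene) by group (x axis). Circles are replicate 1, squares replicate 2 and bars the mean of the 2 libraries; for KLF1 both sgGal4 libraries lie at 20.2 and 24.1 TPM, below the 35.9 to 52.4 TPM of the other groups.

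Differences were tested by limma on log2(TPM + 1) over 10127 genes, with Benjamini-Hochberg adjustment and a threshold of 0.05 on the adjusted p. In the libraries labelled dCas9-KRAB, 1 of the 9 genes passed, KLF1, beside 164 of all genes tested (1.62%). With dCas9-LSD1, 2 passed, KLF1 and GFI1B, beside 88 genes (0.869%). With enCRISPRi-KL, 1 passed, CBFA2T3, beside 138 genes (1.36%). With enCRISPRi-LK, limma called 0 of the 9, beside 203 genes (2.00%), and 2 had an unadjusted p under 0.05. At that level were also 1 of the 9 with dCas9-KRAB, 2 with dCas9-LSD1, 4 with enCRISPRi-KL and 3 over the 4 groups. Of all genes tested, 15.6% had an unadjusted p under 0.05 with dCas9-KRAB, 12.8% with dCas9-LSD1, 14.2% with enCRISPRi-LK, 14.7% with enCRISPRi-KL and 17.1% over the 4 groups. The mean of the 4 HS2-targeted groups differed from sgGal4 for 1 of the 9, KLF1, beside 330 genes (3.26%). All of the differences past the threshold were higher levels than with sgGal4, and the comparisons share the same 2 control libraries. The paper calls the 2 libraries of a group experiments, the labels do not say how far they are independent, and the p-values measure the spread between these samples. The counts of all genes past the threshold moved widely when 1 library was left out, as given under the dependence on processing.

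**Figure D2:**
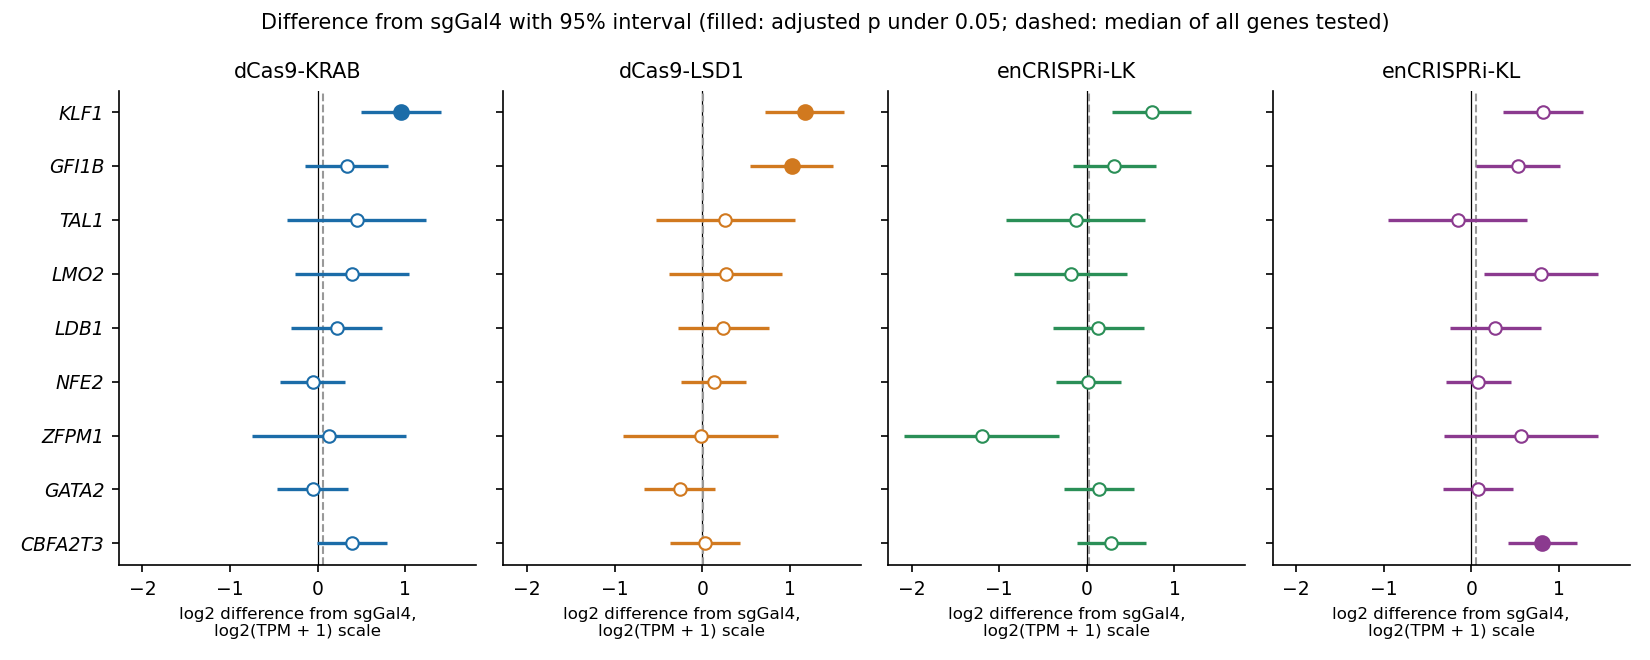
Difference of each of the 9 genes from sgGal4 (x axis, log2(TPM + 1) scale) in the libraries of the 4 HS2-targeted groups, with the 95% interval as a line. Filled points have an adjusted p under 0.05, and the dashed line is the median of all 10127 genes; KLF1 lies highest with dCas9-KRAB and dCas9-LSD1, at 0.95 and 1.17.

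KLF1, the activator of adult globin and red cell membrane genes, had 20.2 and 24.1 TPM in the sgGal4 libraries, 46.4 and 40.9 with dCas9-KRAB, 52.4 and 49.4 with dCas9-LSD1, 39.2 and 35.9 with enCRISPRi-LK, and 42.6 and 36.96 with enCRISPRi-KL. All 8 HS2-targeted libraries lay above both controls. The group means were 22.2 ± 2.69 TPM with sgGal4 (SD, n = 2), 43.7 ± 3.91 with dCas9-KRAB, 50.9 ± 2.13 with dCas9-LSD1, 37.6 ± 2.36 with enCRISPRi-LK and 39.8 ± 3.99 with enCRISPRi-KL. In the order of these means, the libraries of dCas9-KRAB overlapped those of enCRISPRi-KL, and these overlapped those of enCRISPRi-LK. In bulk RNA, a larger share of cells that express KLF1 and more KLF1 RNA per cell cannot be told apart.

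On the log2 scale KLF1 rose by 1.17 in the libraries labelled dCas9-LSD1 (95% interval 0.71 to 1.62, adjusted p = 0.0190 by limma) and by 0.95 in those labelled dCas9-KRAB (0.50 to 1.40, adjusted p = 0.0394). Over the 4 groups together it rose by 0.92 (0.56 to 1.28, adjusted p = 0.00861), higher in 8 of 8 libraries. The differences with enCRISPRi-LK and enCRISPRi-KL were 0.74 (0.29 to 1.19, adjusted p = 0.104) and 0.82 (0.36 to 1.27, adjusted p = 0.0771) and did not pass. That KLF1 passed with the single effectors and not with the dual ones does not show a difference between them. The direct test of dual against single effectors gave -0.28 (-0.60 to 0.04, adjusted p = 0.737).

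These calls changed when single libraries were left out, while the rise stayed between 0.83 and 1.07 with dCas9-KRAB, 1.05 and 1.29 with dCas9-LSD1, and 0.80 and 1.04 over the 4 groups. The call with dCas9-KRAB was lost without sgGal4 replicate 1 (0.83, adjusted p = 0.171), without dCas9-KRAB replicate 1 (0.176) or 2 (0.129), without dCas9-LSD1 replicate 1 (0.0600) or 2 (0.0607), without enCRISPRi-LK replicate 1 (0.0717) or 2 (0.0714), and without enCRISPRi-KL replicate 1 (0.0590) or 2 (0.0586). It stayed past the threshold without sgGal4 replicate 2 alone (0.0407). The call with dCas9-LSD1 was lost without sgGal4 replicate 1 (1.05, adjusted p = 0.0910), dCas9-LSD1 replicate 1 (0.152) or replicate 2 (0.127), and the call over the 4 groups without sgGal4 replicate 1 (0.80, adjusted p = 0.112). Over the settings other than leaving out a library, the adjusted p by limma ran from 0.0252 to 0.140 with dCas9-KRAB, from 0.00770 to 0.0836 with dCas9-LSD1 and from 0.00442 to 0.0479 over the 4 groups, and 4 of 8, 6 of 8 and 7 of 7 of these settings passed. The call with dCas9-KRAB ended without a filter on low values (0.0674), without a mean-variance trend (0.138), with the replicate number as a block (0.0572) and with a fit of only the compared groups (0.140), and the call with dCas9-LSD1 in the second and last of these (0.0836 and 0.0731).

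Because TPM is a share and sgGal4 replicate 1 had the highest share of mitochondrial RNA, KLF1 was also read with the mitochondrial genes removed and each library rescaled to one total. KLF1 then stood at 51.7 and 52.5 TPM in the control libraries and at 77.6 to 119.8 TPM in the other 8, so both controls again lay below all other libraries, and those of dCas9-KRAB no longer overlapped those of enCRISPRi-KL. This scaling moved the median difference of all genes by -0.12 with dCas9-KRAB and by -0.12 with enCRISPRi-LK. Relative to the median of all genes in the deposited TPM, KLF1 was higher by 0.89 on the log2 scale with dCas9-KRAB, 1.16 with dCas9-LSD1, 0.71 with enCRISPRi-LK and 0.77 with enCRISPRi-KL.

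The bases before the start of KLF1 are shown because KLF1 is the gene with most of the calls and a known target of GATA1. Promoters of 7 of the 9 genes, in 10 windows of the 250 bases before a start, were matched in RefSeq (GRCh38.p14); LMO2 and NFE2 had no entry. The window of KLF1 is chr19:12887202-12887451 on the minus strand, printed 5′ to 3′ with the GATA motif in capitals. The motif was searched on both strands as AGATAA or AGATAG or TGATAA or TGATAG.
KLF1: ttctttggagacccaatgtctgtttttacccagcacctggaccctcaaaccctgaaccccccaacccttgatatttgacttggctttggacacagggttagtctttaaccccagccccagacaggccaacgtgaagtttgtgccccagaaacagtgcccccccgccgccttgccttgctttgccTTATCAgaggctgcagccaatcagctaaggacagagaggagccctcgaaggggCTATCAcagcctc
The GATA motif begins 66 and 13 bases before the start of KLF1, at -66 and -13, and an E-box (CANNTG) begins at -217. These matches describe the letters of the window, not the binding of a factor.

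GFI1B, the repressor that recruits LSD1, had 25.1 and 32.7 TPM with sgGal4, 32.5 and 40.5 with dCas9-KRAB, 62.8 and 55.8 with dCas9-LSD1, 35.6 and 36.1 with enCRISPRi-LK, and 45.2 and 38.7 with enCRISPRi-KL. The libraries labelled dCas9-LSD1 were above all other libraries, as for 2.38% of all genes tested, and those of dCas9-KRAB overlapped the controls. The means were 28.9 ± 5.40 TPM with sgGal4 (SD, n = 2) and 59.3 ± 4.99 TPM with dCas9-LSD1, and the groups between them were at 36.5 ± 5.71 (dCas9-KRAB), 35.9 ± 0.382 (enCRISPRi-LK) and 41.9 ± 4.59 TPM (enCRISPRi-KL). The group with the highest GFI1B was thus the one in which KDM1A, the gene of its partner LSD1, was high as well. The part of the construct in the KDM1A reading was not tested.

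GFI1B rose by 1.02 (log2) in the libraries labelled dCas9-LSD1 (0.54 to 1.50, adjusted p = 0.0491 by limma). The other differences were 0.33 with dCas9-KRAB (adjusted p = 0.515), 0.31 with enCRISPRi-LK (0.578) and 0.53 with enCRISPRi-KL (0.284). In this order they were 0.14, 0.13 and 0.34 without sgGal4 replicate 1, and 0.52, 0.50 and 0.71 without sgGal4 replicate 2. With the mitochondrial genes removed the first 2 were 0.21 and 0.19. Between dCas9-KRAB and dCas9-LSD1 the difference of GFI1B was -0.69 (-1.17 to -0.21, adjusted p = 0.497), where limma called 0 of the 9 genes beside 4 of all genes (0.0395%), with 1 of the 9 at an unadjusted p under 0.05 (8.34% of all genes). The rise with dCas9-LSD1 stayed between 0.84 and 1.21 when 1 library was left out, but the adjusted p lay close to the threshold. The call was kept without sgGal4 replicate 2 (0.0379). It was lost without sgGal4 replicate 1 (0.209), dCas9-LSD1 replicate 1 (0.224) or 2 (0.213), dCas9-KRAB replicate 1 (0.0555) or 2 (0.0559), enCRISPRi-LK replicate 1 (0.0810) or 2 (0.0811), and enCRISPRi-KL replicate 1 (0.0668) or 2 (0.0641). Over the other settings the adjusted p ran from 0.0288 to 0.150, and 3 of 8 passed. The call ended with a pseudocount of 0.1 (0.0584), no filter (0.0965), no trend (0.150), the replicate block (0.0738) and only the groups compared (0.109).

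GFI1B has 2 starts in the promoter table, and both windows are shown because the motifs differ between them. The first is chr9:132945281-132945530 and the second chr9:132978444-132978693 (GRCh38.p14, RefSeq), both on the plus strand, with the GATA motif in capitals.
GFI1B start 1: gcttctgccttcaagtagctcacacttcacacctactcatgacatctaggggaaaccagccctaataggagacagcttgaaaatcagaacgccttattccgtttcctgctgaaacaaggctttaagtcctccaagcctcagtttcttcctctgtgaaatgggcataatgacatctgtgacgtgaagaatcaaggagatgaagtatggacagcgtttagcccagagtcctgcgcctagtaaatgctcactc
GFI1B start 2: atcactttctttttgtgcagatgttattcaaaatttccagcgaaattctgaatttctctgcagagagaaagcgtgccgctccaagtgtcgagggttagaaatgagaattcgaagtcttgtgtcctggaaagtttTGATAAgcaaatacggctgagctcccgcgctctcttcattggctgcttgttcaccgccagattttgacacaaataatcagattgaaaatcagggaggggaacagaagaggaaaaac
The first window has no GATA motif and an E-box at -80. The second has a GATA motif at -116, E-boxes at -233 and -169, and the KLF motif (CCNCNCCC) at -25.

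CBFA2T3, the corepressor of the TAL1 complex, had 48.1 and 50.9 TPM with sgGal4, 67.1 and 63.7 with dCas9-KRAB, 56.5 and 45.2 with dCas9-LSD1, 61.2 and 59.4 with enCRISPRi-LK, and 86.9 and 87.8 with enCRISPRi-KL. Its libraries labelled enCRISPRi-KL were above all others, as for 4.30% of all genes tested, and those labelled dCas9-LSD1 overlapped the controls. The means were 49.5 ± 1.97 TPM with sgGal4 (SD, n = 2), 65.4 ± 2.40 with dCas9-KRAB, 50.9 ± 7.96 with dCas9-LSD1, 60.3 ± 1.26 with enCRISPRi-LK and 87.3 ± 0.573 with enCRISPRi-KL. From the highest mean to the lowest the order was enCRISPRi-KL, dCas9-KRAB, enCRISPRi-LK, dCas9-LSD1 and sgGal4, and of these neighbours the last 2 overlapped. With the mitochondrial genes removed, dCas9-LSD1 also overlapped enCRISPRi-LK (129.3 TPM in replicate 1 of the former, 128.5 TPM in replicate 2 of the latter).

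CBFA2T3 rose by 0.81 (log2) in the libraries labelled enCRISPRi-KL (0.41 to 1.21, adjusted p = 0.0477 by limma). The differences with dCas9-KRAB and enCRISPRi-LK were 0.40 (adjusted p = 0.322) and 0.28 (0.541), and with dCas9-LSD1 0.03 (0.973), whose sign turned to -0.02 with the mitochondrial genes removed. The difference with enCRISPRi-LK was then 0.16. Between enCRISPRi-LK and enCRISPRi-KL it was -0.53 (-0.92 to -0.13, adjusted p = 0.351). In that comparison limma called 0 of the 9 genes beside 39 of all (0.385%), and 3 of the 9 had an unadjusted p under 0.05 (9.84% of all genes). The rise with enCRISPRi-KL stayed between 0.77 and 0.85 when 1 library was left out, but its call was lost in all 10 cases. The adjusted p was 0.151 without sgGal4 replicate 1, 0.0767 without replicate 2, 0.0592 and 0.0597 without dCas9-KRAB replicates 1 and 2, 0.0564 and 0.0553 without those of dCas9-LSD1, 0.0877 and 0.0874 without those of enCRISPRi-LK, and 0.174 and 0.248 without those of enCRISPRi-KL. Over the other settings the adjusted p ran from 0.0329 to 0.155, and 2 of 8 passed. The call ended with a pseudocount of 0.1 (0.0538), no filter (0.0510), no trend (0.155), the replicate block (0.0709), only the groups compared (0.149) and the mitochondrial genes removed (0.71, adjusted p = 0.0537).

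The promoter window of CBFA2T3, chr16:88941351-88941600 on the minus strand (GRCh38.p14, RefSeq), is shown for contrast with the KLF1 window, since it has no match to the GATA motif and so no capitals. It is the 1 window matched for this gene, and any other start of the gene was not read.
CBFA2T3: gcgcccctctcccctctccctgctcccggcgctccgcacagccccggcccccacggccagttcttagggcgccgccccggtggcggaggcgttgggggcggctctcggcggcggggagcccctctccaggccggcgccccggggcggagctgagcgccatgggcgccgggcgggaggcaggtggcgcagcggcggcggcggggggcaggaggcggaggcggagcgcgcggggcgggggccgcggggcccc
It has 4 matches to the KLF motif, at -245, -238, -157 and -21, and an E-box at -73, and 84.4% of its bases are G or C, against 55.2% in the KLF1 window.

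**Figure D3:**
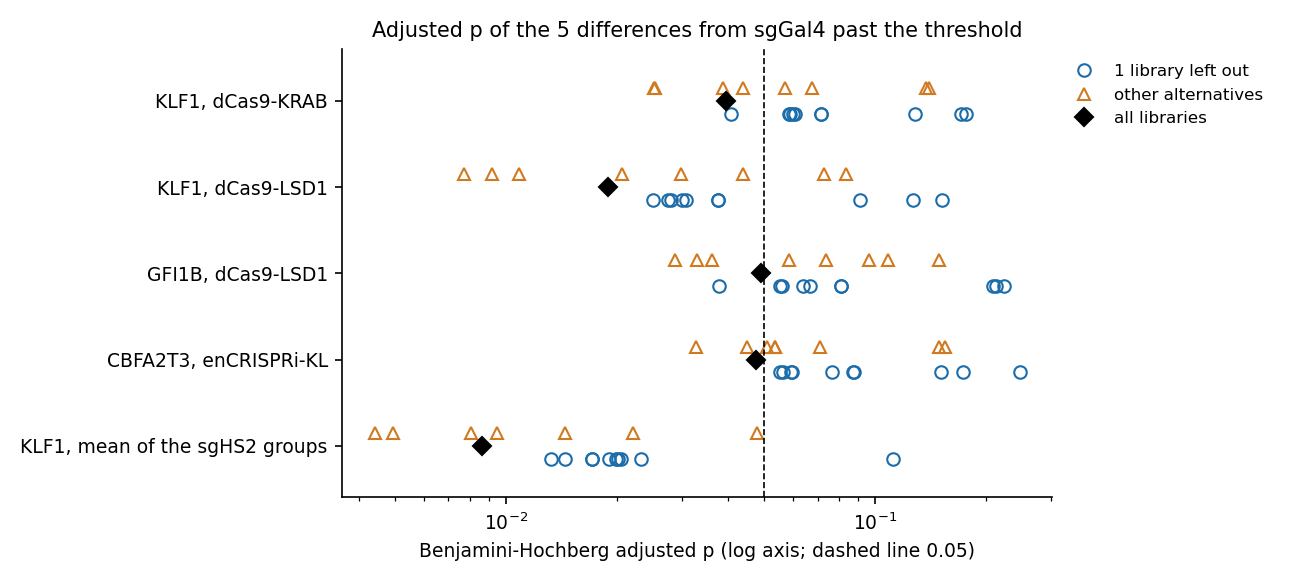
Adjusted p from limma (x axis, log scale) of the 5 differences of the 9 genes that passed the threshold, with all libraries (diamonds), with 1 library left out (circles) and under the other settings (triangles). The dashed line is at 0.05; for CBFA2T3 with enCRISPRi-KL all 10 circles lie beyond it, between 0.0553 and 0.248.

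TAL1, the basic helix-loop-helix factor of the complex, had 12.1 and 12.2 TPM with sgGal4, 18.5 and 15.5 with dCas9-KRAB, 16.8 and 13.1 with dCas9-LSD1, 11.1 and 10.97 with enCRISPRi-LK, and 6.60 and 17.3 with enCRISPRi-KL. The libraries of the 2 single effectors were above the controls, those of enCRISPRi-LK just below them, and those of enCRISPRi-KL on either side. With the mitochondrial genes removed, dCas9-LSD1 replicate 2 (29.6 TPM) lay between the controls (31.0 and 26.6 TPM). None of the 4 differences from sgGal4 passed the threshold of limma, the smallest adjusted p was 0.611, and the 95% intervals of the 4 groups together reached from -0.95 to 1.24.

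LMO2, the bridge between TAL1 and LDB1, had 14.1 and 15.7 TPM with sgGal4, 18.0 and 21.8 with dCas9-KRAB, 13.5 and 24.1 with dCas9-LSD1, 12.7 and 13.3 with enCRISPRi-LK, and 30.2 and 23.3 with enCRISPRi-KL. The enCRISPRi-KL libraries were above the controls and the enCRISPRi-LK libraries below them. Groups wholly on opposite sides of the controls, seen for LMO2 and TAL1, were found for 844 of all genes tested (8.33%). The difference from sgGal4 with enCRISPRi-KL was 0.79 (0.15 to 1.44, adjusted p = 0.228 by limma), and enCRISPRi-LK against enCRISPRi-KL gave -0.98 (-1.63 to -0.33, adjusted p = 0.256). LMO2 is the one gene of the 9 on the chromosome of the β-like globin genes. It lies 28.35 Mb from the nearer end of the span annotated for HBE1, chr11:5289575-5526882 (GRCh37).

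ZFPM1, the GATA1 cofactor, had 5.23 and 12.1 TPM with sgGal4, 7.41 and 10.6 with dCas9-KRAB, 6.58 and 9.49 with dCas9-LSD1, 2.20 and 3.81 with enCRISPRi-LK, and 13.6 and 11.2 with enCRISPRi-KL. The enCRISPRi-LK libraries were below all others, as for 2.07% of all genes tested, and its control libraries had an SD of 4.84 TPM around a mean of 8.65 TPM (n = 2). The differences were -1.20 from sgGal4 with enCRISPRi-LK (-2.08 to -0.32, adjusted p = 0.183 by limma) and -1.77 for enCRISPRi-LK against enCRISPRi-KL (-2.65 to -0.88, adjusted p = 0.102), and neither passed. The first was -1.74 without sgGal4 replicate 1 and -0.67 without replicate 2, and the second ran from -2.06 to -1.47 with 1 library left out.

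The remaining genes are LDB1, NFE2 and GATA2, whose highest library exceeded the lowest by ratios of 1.74, 1.31 and 1.59. LDB1, the dimerising cofactor that joins distant sites, ranged from 32.2 to 56.1 TPM, and both ends were control libraries. NFE2 ranged from 101 to 132 TPM and each group overlapped the next in the order of means. With the mitochondrial genes removed, both NFE2 controls lay above the libraries of dCas9-KRAB and of enCRISPRi-LK. That rescaling moved the median difference of all genes by -0.12 in each of these groups. How many of all genes separated in this way was not counted. GATA2 ranged from 62.0 to 98.6 TPM, lowest with dCas9-LSD1, at 71.2 and 62.0 TPM against 72.8 and 87.3 TPM with sgGal4, and both below all other libraries, as for 3.12% of all genes tested. With the mitochondrial genes removed this separation was lost, with dCas9-LSD1 replicate 1 at 162.9 TPM and dCas9-KRAB replicate 1 at 158.4 TPM. None passed in any comparison. The 95% intervals of their differences from sgGal4 in the 4 groups reached from -0.39 to 0.79 for LDB1 (smallest adjusted p 0.671), from -0.43 to 0.50 for NFE2 (0.815) and from -0.66 to 0.53 for GATA2 (0.613). These intervals bound the differences and do not show that the levels were equal.

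As a list, 7 of the 9 genes had a difference from sgGal4 above 0 with dCas9-KRAB, with a median of 0.33 on the log2 scale against 0.06 for all genes tested. With dCas9-LSD1 it was 7 of 9 and a median of 0.24 against 0.00, with enCRISPRi-LK 6 of 9 and 0.13 against 0.03, and with enCRISPRi-KL 8 of 9 and 0.53 against 0.05. How many of all genes tested lay above 0 was not counted, and these comparisons share the same control libraries. Dual against single effectors gave 0 of the 9 called by limma, beside 9 of all genes (0.0889%), and 1 at an unadjusted p under 0.05 (7.45% of all genes). The F test of any difference among the 5 groups called 0 of the 9, beside 184 genes (1.82%), with 5 at an unadjusted p under 0.05 (15.8% of all genes); KLF1 came nearest, at an adjusted p of 0.0505.

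The other genes of the same pathways were read as lists. Of the further factors of the GATA1-TAL1-LDB1 complex, 10 of 12 were tested and limma called 0 in any comparison, with 1, 2, 3 and 0 at an unadjusted p under 0.05 with dCas9-KRAB, dCas9-LSD1, enCRISPRi-LK and enCRISPRi-KL. Their most abundant gene was TCF3, a dimer partner of TAL1, at 123 TPM, and GATA1 was listed at 0 in all 10 libraries, as were 14 of the 17 listed genes within 250 kb of it, and it was not used here. All 8 genes of the NFE2 family and its small Maf partners were tested, 0 were called, with 0, 0, 1 and 0 at an unadjusted p under 0.05 in the same order, and NFE2L1 was the most abundant at 60.9 TPM. The complexes on which GFI1B and ZFPM1 act held 1 called gene between them. Of 8 tested genes of the GFI1B-LSD1 corepressor, KDM1A alone was called, higher with dCas9-LSD1 by 1.66 (adjusted p = 0.00256), lost without dCas9-LSD1 replicate 1 (1.50, adjusted p = 0.0622). It was also called in dCas9-KRAB against dCas9-LSD1 (-1.69, adjusted p = 0.00677, range over the settings 0.00236 to 0.173), lost without dCas9-KRAB replicate 1 (0.103) or 2 (0.146), dCas9-LSD1 replicate 1 (0.167), a filter (0.0583) or a trend (0.173), and in the F test (0.00285), lost without dCas9-LSD1 replicate 1 (0.0509). In this list 0, 4, 1 and 3 genes had an unadjusted p under 0.05, and HDAC2 was the most abundant at 83.0 TPM. Beside KDM1A, those with dCas9-LSD1 were RCOR1, HMG20B and PHF21A, which were lower (-1.24, -0.66 and -0.61). The same genes were lower with enCRISPRi-KL (-1.20, -0.60 and -1.08), and none of these differences passed the threshold. Their means were also below those of sgGal4 with dCas9-KRAB and enCRISPRi-LK. RCOR1 was at 21.6 TPM with sgGal4, 12.1 with dCas9-KRAB and 12.8 with enCRISPRi-LK. For HMG20B these means were 54.35, 40.1 and 37.6 TPM, and for PHF21A 60.5, 41.6 and 46.0 TPM. Of 11 tested NuRD subunits, limma called 0, with 0, 1, 2 and 2 at an unadjusted p under 0.05, and RBBP4, a histone-binding subunit, was the most abundant at 171 TPM.

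Among 17 tested other blood transcription factors, 5, 4, 4 and 3 had an unadjusted p under 0.05 in the same order. BCL11A, the repressor of fetal globin genes, was at 1.20 and 1.72 TPM with sgGal4, 4.58 and 4.75 with dCas9-KRAB, 2.70 and 4.63 with dCas9-LSD1, 1.58 and 3.65 with enCRISPRi-LK, and 9.84 and 10.0 with enCRISPRi-KL. It was the one called with enCRISPRi-KL, where it rose by 2.16 (1.27 to 3.05, adjusted p = 0.0168), and the call was lost without sgGal4 replicate 1 (0.113) or enCRISPRi-KL replicate 1 (0.0944) or 2 (0.131). KLF6, a relative of KLF1, fell by 1.25 over the 4 groups (adjusted p = 0.0391), with controls at 10.8 and 22.4 TPM and the other libraries at 4.64 to 8.80 TPM. Without sgGal4 replicate 2 its difference was -0.76 (adjusted p = 0.364). It was also lost without dCas9-KRAB replicate 1 (0.0623) or 2 (0.0525), dCas9-LSD1 replicate 1 (0.0515) or 2 (0.0645), enCRISPRi-LK replicate 1 (0.0737) or 2 (0.0720), and enCRISPRi-KL replicate 1 (0.0619) or 2 (0.0518), and STAT5A was the most abundant of the list at 115 TPM.

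The known targets of KLF1 and of GATA1 and TAL1 were read to set the factors beside the genes they control. Of 15 KLF1 targets, 12 were tested, and BCL11A with enCRISPRi-KL was the single call against sgGal4 in one group, with 4, 5, 1 and 4 at an unadjusted p under 0.05 in the same order. Their medians on the log2 scale were 0.37 with dCas9-KRAB, 0.27 with dCas9-LSD1, 0.23 with enCRISPRi-LK and 0.23 with enCRISPRi-KL, each beside a median of all genes of at most 0.06. Of the 12 tested, 9, 10, 7 and 7 had a difference above 0 in that order, and the others did not. DMTN, one of these targets, was at 40.1 and 41.9 TPM with sgGal4. It was at 23.7 and 22.6 TPM with dCas9-KRAB, 22.9 and 29.8 with dCas9-LSD1, 17.9 and 26.2 with enCRISPRi-LK, and 40.45 and 27.75 with enCRISPRi-KL. ICAM4, a red cell adhesion protein, rose over the 4 groups by 1.01 (adjusted p = 0.0493), from 7.47 and 14.2 TPM in the controls to 16.2 to 31.3 TPM in the other libraries. It was 0.59 without sgGal4 replicate 1 (adjusted p = 0.429), and the call was also lost without dCas9-KRAB replicate 1 (0.0835) or 2 (0.0536), dCas9-LSD1 replicate 2 (0.0856), enCRISPRi-LK replicate 1 (0.0900) or 2 (0.0920), and enCRISPRi-KL replicate 1 (0.0768) or 2 (0.0772). The most abundant target was ANK1, the membrane anchor ankyrin, at 84.8 TPM.

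Of 16 GATA1 and TAL1 targets, 15 were tested, with 7, 6, 4 and 6 at an unadjusted p under 0.05, and HBZ, the embryonic α-like globin gene, was the most abundant at 1403 TPM. HBZ was at 1034 and 940 TPM with sgGal4, 1345 and 1340 with dCas9-KRAB, 2712 and 1909 with dCas9-LSD1, 800 and 829 with enCRISPRi-LK, and 1457 and 1659 with enCRISPRi-KL. It rose by 1.21 with dCas9-LSD1 (0.90 to 1.51, adjusted p = 0.00115 by limma), a call kept with each library left out and lost without a trend (0.101, range over the settings 0.000248 to 0.101). It also rose by 0.66 with enCRISPRi-KL (adjusted p = 0.0340), a call lost without sgGal4 replicate 1 (0.0662) or 2 (0.0982), dCas9-KRAB replicate 1 (0.0581) or 2 (0.0589), enCRISPRi-LK replicate 1 (0.0586) or 2 (0.0590), enCRISPRi-KL replicate 1 (0.0911) or 2 (0.273). Of 8 other settings, 3 kept this call, over a range of 0.0183 to 0.273, and it ended with no filter (0.142), size factors (0.118), the mitochondrial genes removed (0.103), no trend (0.273) and only the groups compared (0.0730). With enCRISPRi-LK, where 0 of the 9 factors were called, HEMGN, an erythroid nuclear protein, fell by 0.87 (adjusted p = 0.0259), and SLC25A37, the mitochondrial iron importer, fell by 0.76 (adjusted p = 0.0411). HEMGN went from 94.9 and 103.7 TPM with sgGal4 to 57.6 and 50.4 TPM, and its call was lost without sgGal4 replicate 1 (0.0696) or 2 (0.0808) or enCRISPRi-LK replicate 1 (0.119) or 2 (0.281). SLC25A37 went from 98.8 and 107 TPM to 58.5 and 62.4 TPM, and its call was lost with any 1 library left out, at adjusted p of 0.0953 and 0.109 without sgGal4 replicates 1 and 2, 0.0516 and 0.0524 without those of dCas9-KRAB, 0.0595 and 0.0588 without those of dCas9-LSD1, 0.263 and 0.240 without those of enCRISPRi-LK, and 0.0537 and 0.0558 without those of enCRISPRi-KL.

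The β-like globin genes past the threshold among the erythroid markers were lower than with sgGal4. HBE1 was at 1376 and 1620 TPM with sgGal4, 695 and 759 with dCas9-KRAB, 1019 and 986 with dCas9-LSD1, 557 and 458 with enCRISPRi-LK, and 384 and 361 with enCRISPRi-KL, so all 8 HS2-targeted libraries lay below both controls. The difference with dCas9-LSD1, -0.57, did not pass (adjusted p = 0.0567). By limma it fell by 1.04 with dCas9-KRAB (adjusted p = 0.00296), by 1.56 with enCRISPRi-LK (2.55e-05), by 2.00 with enCRISPRi-KL (1.49e-06) and by 1.29 over the 4 groups (1.05e-05), each kept with every library left out. The first of these calls ended without a trend (0.112, range over the settings 0.000643 to 0.112). HBG2, a fetal globin gene, was at 941 and 673 TPM with sgGal4, 698 and 581 with dCas9-KRAB, 554 and 519 with dCas9-LSD1, 365 and 421 with enCRISPRi-LK, and 222 and 229 with enCRISPRi-KL. It fell by 1.02 with enCRISPRi-LK (adjusted p = 0.00556), lost without enCRISPRi-LK replicate 1 (0.0758), a filter (0.0584) or a trend (0.150, range 0.00214 to 0.150), by 1.81 with enCRISPRi-KL (5.47e-05) and by 0.93 over the 4 groups (0.00117), the last lost without a trend (0.0666, range 0.000305 to 0.0666). HBG1, the other fetal gene, was at 118 and 99.4 TPM with sgGal4, 132 and 132 with dCas9-KRAB, 109.7 and 97.4 with dCas9-LSD1, 70.6 and 64.5 with enCRISPRi-LK, and 58.9 and 40.6 with enCRISPRi-KL. With enCRISPRi-KL it fell by 1.13 (adjusted p = 0.00994). That call was lost without sgGal4 replicate 1 (0.0734), enCRISPRi-KL replicate 2 (0.147), without a trend (0.0857) and with only the groups compared (0.0633, range 0.00427 to 0.0857). Of the 12 erythroid markers 6, 6, 6 and 8 had an unadjusted p under 0.05, and the median difference from sgGal4 was 0.19 with dCas9-KRAB, 0.01 with dCas9-LSD1, -0.40 with enCRISPRi-LK and -0.26 with enCRISPRi-KL. The part of the factors in these differences was not tested.

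**Figure D4:**
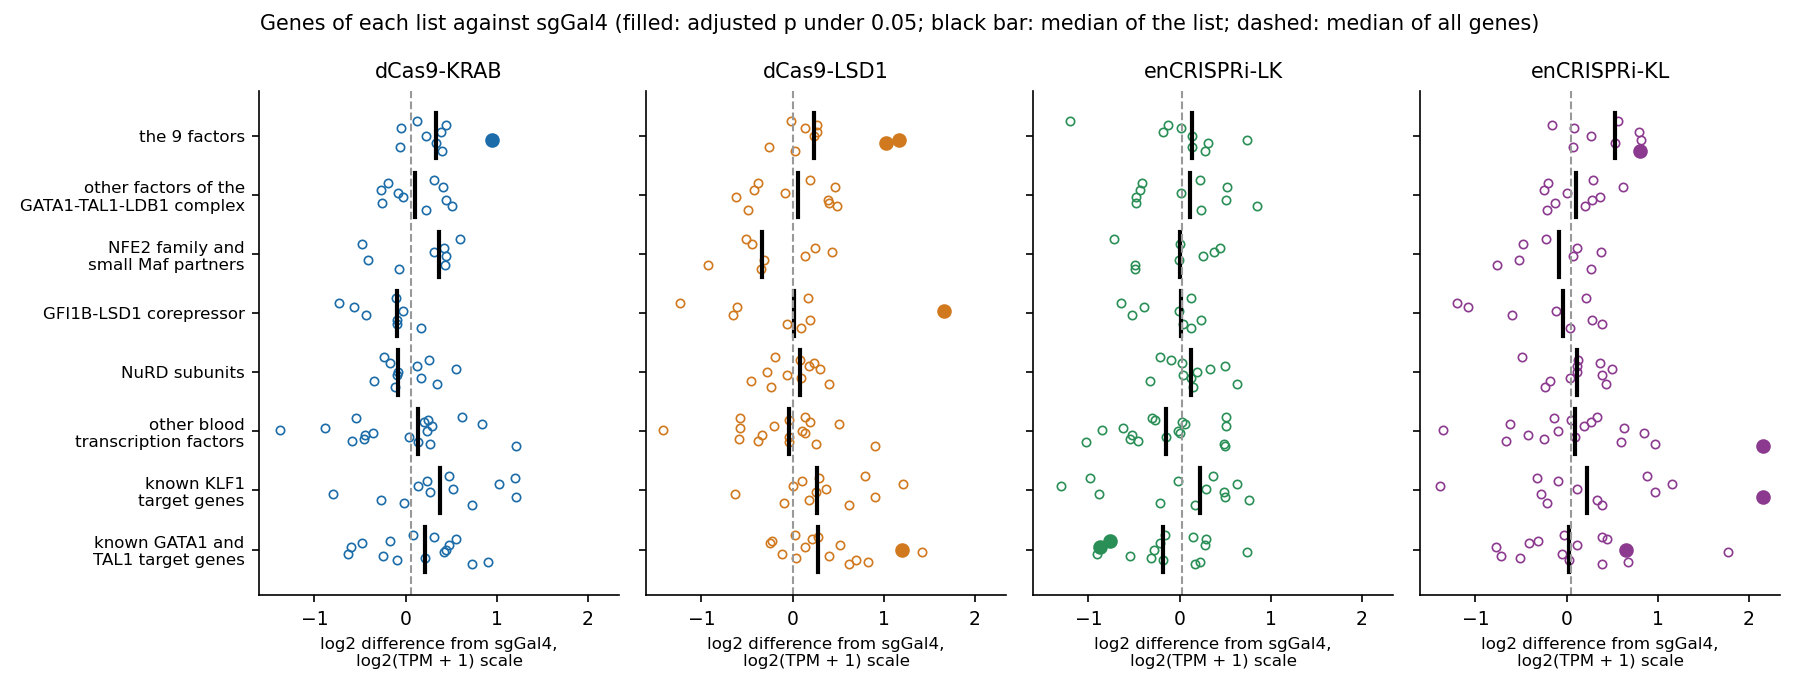
Difference from sgGal4 (x axis, log2(TPM + 1) scale) of each tested gene of the 9 factors and of 7 lists of related genes, by HS2-targeted group. Filled points have an adjusted p under 0.05, black bars are the list medians and dashed lines the median of all genes; for the 9 factors the bar lies at 0.33, 0.24, 0.13 and 0.53 in the 4 groups.

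Motifs were counted in all 10 promoter windows, on both strands, as the GATA motif, the E-box, the KLF motif and the NF-E2 motif (TGANTCA). The GATA motif was in 3 of 10 windows, of KLF1, GFI1B and TAL1, against 22.3% of the 35116 windows in the table. The E-box was in 6 windows (61.8% of all windows), the KLF motif in 7 (53.4%) and the NF-E2 motif in 1, that of TAL1 (6.57%). Matches may overlap, and in TAL1 the NF-E2 motif at -98 and the E-box at -93 share bases. In the plot of positions the GATA motif lies within 116 bases of the start in each of the 3 windows that hold it. KLF motifs reach from -202 to -17 in ZFPM1 and from -212 to -37 in the second GATA2 window. They also reach from -245 to -21 in CBFA2T3 and from -232 to -49 in LDB1.

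**Figure D5:**
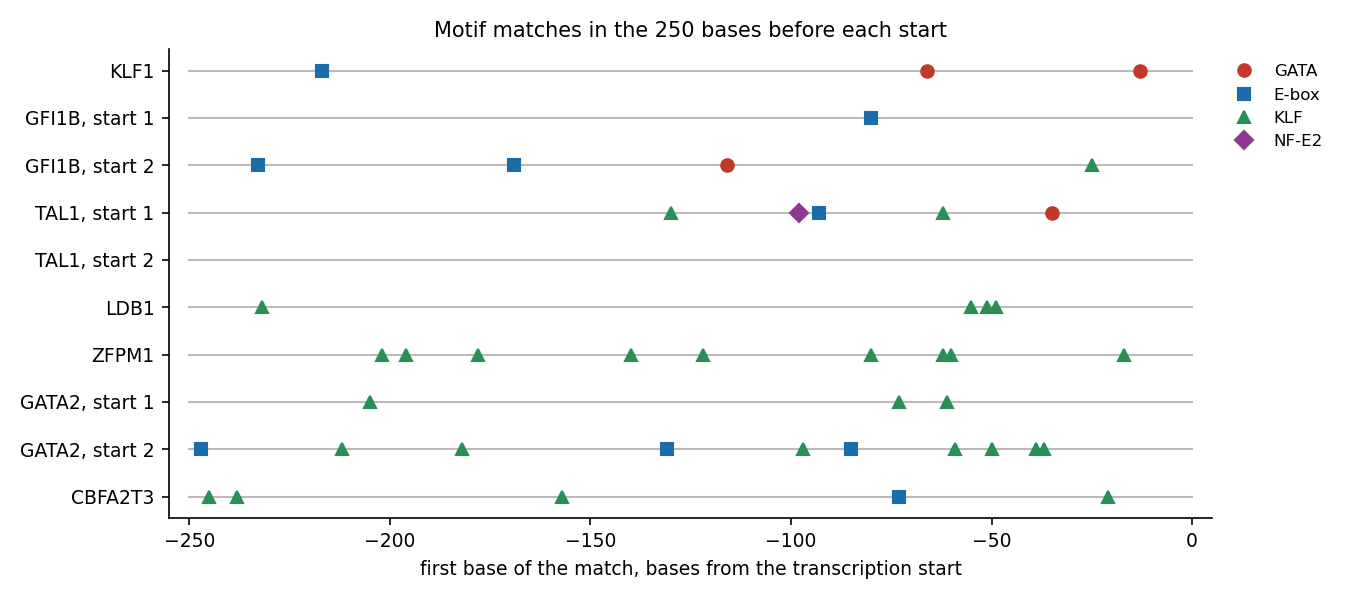
Position of each motif match in the 250 bases before the start (x axis, bases from the start, first base of the match) in the 10 promoter windows of 7 genes. Circles are the GATA motif, squares the E-box, triangles the KLF motif and the diamond the NF-E2 motif; the circles of KLF1 lie at -66 and -13.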

How the data were processed

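RNA-seq was read in 10 K562 libraries, 2 in each of 5 groups, grouped by their labels. Per the labels and the paper's methods, the authors aligned reads to hg19 with STAR 2.5.2b, used uniquely mapped reads alone, and deposited RSEM values as TPM with 2 decimals for 20535 gene symbols. The annotation is not named in the sources used here, and depth is unknown. The paper names DESeq2, which needs counts, so that step was not repeated.

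From the TPM, log2(TPM + 1) was fitted by limma 3.58.1 (R 4.3.3) in one model of all groups, with 5 residual degrees of freedom, for 10127 genes whose mean reached 1 TPM. Variances were moderated with a mean-variance trend, and p-values were adjusted by Benjamini-Hochberg over all genes of each of 9 comparisons. Members and lists were chosen with earlier results of these data known. Named genes are the 9 members, KDM1A, ZNF10 and, from each list, its most abundant gene and genes past the threshold; other genes were named after their values were seen. When a library was left out, the lone sample of its group was assumed to vary like the others. Promoters come from RefSeq (GRCh38.p14) and gene positions from GENCODE 44 on GRCh37. Plots used Python 3.11.15 and matplotlib 3.10.9. The alternatives were a pseudocount of 0.1, no filter or a filter at a mean of 10 TPM, 2 rescalings, no trend, only the groups compared, a replicate block and leaving out each library.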

Additional observations from a re-analysis of the deposited data

Results flagged for a closer look

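TAL1 and LMO2 are given here because both libraries of one group lay above both sgGal4 libraries while both of another lay below, as for 844 of all 10127 genes tested (8.33%). The sgGal4 libraries of TAL1 were close together, at 12.14 and 12.20 TPM, but at 31.0 and 26.6 TPM with the mitochondrial genes removed, where those of dCas9-LSD1 (38.4 and 29.6 TPM) overlapped them. For TAL1 the log2 difference from sgGal4 was 0.44 with dCas9-KRAB, 0.26 with dCas9-LSD1 and -0.13 with enCRISPRi-LK. With 1 library left out these ran from 0.33 to 0.56, from 0.09 to 0.43 and from -0.14 to -0.12, and with the mitochondrial genes removed they were 0.34, 0.22 and -0.26. The second was 0.09 without dCas9-LSD1 replicate 1 and 0.43 without replicate 2. The gap to enCRISPRi-LK was 0.57 with dCas9-KRAB and 0.39 with dCas9-LSD1, and neither gap was tested. For LMO2 the difference was 0.39 with dCas9-KRAB and -0.18 with enCRISPRi-LK, a gap of 0.58 that was not tested, and 0.79 with enCRISPRi-KL. With 1 library left out these ran from 0.26 to 0.52, from -0.26 to -0.11 and from 0.62 to 0.97, and the first was 0.26 without dCas9-KRAB replicate 2, the second -0.11 without sgGal4 replicate 2. With the mitochondrial genes removed they were 0.28, -0.31 and 0.72. The gap of -0.98 for LMO2 between enCRISPRi-LK and enCRISPRi-KL was tested by limma and did not pass (adjusted p = 0.256).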

How the results depend on the processing

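Of the members' 72 differences over 8 contrasts, 33 were recomputed under each alternative, which gave 589 values. These are all differences of KLF1, GFI1B and CBFA2T3, others with an unadjusted p under 0.05 and those of TAL1 and LMO2 from sgGal4 where the libraries did not overlap, with none of LDB1, NFE2 or GATA2. Of these, 535 kept their direction and side of the threshold, 49 lost the call, 1 gained it and 4 reversed. The reversed values were small: CBFA2T3 with dCas9-LSD1 went from 0.03 to -0.0198 with the mitochondrial genes removed, -0.00799 without sgGal4 replicate 1 and -0.125 without dCas9-LSD1 replicate 1 (range with 1 library left out -0.125 to 0.189), and KLF1 in enCRISPRi-LK against enCRISPRi-KL went from -0.08 to 0.022 without enCRISPRi-KL replicate 1 (range -0.178 to 0.022). The 1 gain was KLF1 with enCRISPRi-KL under median-of-ratios size factors (adjusted p = 0.0442, range 0.0442 to 0.239). For the list genes, the adjusted p over the settings other than leaving out a library ran from 0.0172 to 0.0696 (BCL11A), 0.0199 to 0.110 (KLF6), 0.0288 to 0.137 (ICAM4), 0.00871 to 0.164 (HEMGN), 0.0165 to 0.201 (SLC25A37) and 0.000967 to 0.0424 (KDM1A with dCas9-LSD1).

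Among the 9 members, the count past the threshold with dCas9-KRAB went from 1 to 0 without a filter, without a trend, with the replicate block and with only the groups compared. With dCas9-LSD1 it went from 2 to 1 with a pseudocount of 0.1, no filter or the replicate block, and to 0 without a trend or with only the groups compared. With enCRISPRi-KL it went from 1 to 0 with a pseudocount of 0.1, no filter, the mitochondrial genes removed, no trend, the replicate block or only the groups compared, and to 2 with size factors. In the F test it went from 0 to 1 with a filter at 10 TPM, with size factors and with the mitochondrial genes removed. Leaving out 1 library gave 0 to 1 with dCas9-KRAB, 0 to 2 with dCas9-LSD1, 0 to 0 with enCRISPRi-KL and 0 to 1 over the 4 groups.

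Over all genes, dropping the filter changed the counts to 51 (dCas9-KRAB), 37 (dCas9-LSD1), 61 (enCRISPRi-LK), 83 (enCRISPRi-KL), 185 (the 4 groups), 4 (dual against single), 2 (dCas9-KRAB against dCas9-LSD1), 20 (enCRISPRi-LK against enCRISPRi-KL) and 58 (F test), and dropping the trend to 14, 22, 15, 75, 99, 4, 1, 17 and 39. Fitting only the groups compared gave 86, 42, 55 and 82 against sgGal4, 15 for dual against single and 21 for enCRISPRi-LK against enCRISPRi-KL. Removing the mitochondrial genes gave 139 with dCas9-LSD1, and a pseudocount of 0.1 gave 5 for dual against single. With 1 library left out the counts ran from 9 to 231 (dCas9-KRAB), 16 to 138 (dCas9-LSD1), 20 to 209 (enCRISPRi-LK), 49 to 167 (enCRISPRi-KL), 90 to 274 (the 4 groups), 3 to 15 (dual against single), 2 to 5 (dCas9-KRAB against dCas9-LSD1), 3 to 39 (enCRISPRi-LK against enCRISPRi-KL) and 69 to 167 (F test). The cause was not tested. The comparison over the 4 groups and the F test have no value with only the groups compared, and ZFPM1 has none under the 10 TPM filter. As a check of pairing, the correlation of replicate deviations between groups ran from -0.0213 to 0.0229 over 10 pairs of groups.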

Other observations

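Markers of other blood cells were read beside the factors. The summed level of the 12 erythroid markers ran from 2306 TPM in enCRISPRi-LK replicate 2 to 5091 TPM in dCas9-LSD1 replicate 1, with HBZ as the most abundant gene. In dual against single effectors limma called 4 of the 12, all lower, against 9 of all genes: HBE1 by -0.97 (adjusted p = 0.000237), HBG2 by -0.97 (0.00174), HBG1 by -1.01 (0.0105) and HBZ by -0.63 (0.0372). The HBG1 call was lost without dCas9-KRAB replicate 1 (0.0605) or 2 (0.0740), dCas9-LSD1 replicate 1 (0.0711), enCRISPRi-LK replicate 2 (0.0740) or enCRISPRi-KL replicate 2 (0.0555), and the HBZ call without dCas9-KRAB replicate 1 (0.161) or 2 (0.133), dCas9-LSD1 replicate 1 (0.116), enCRISPRi-LK replicate 1 (0.151) or 2 (0.117), or enCRISPRi-KL replicate 1 (0.159) or 2 (0.0843). Over the other settings the adjusted p ran from 3.27e-05 to 0.109 (HBE1), 0.000196 to 0.151 (HBG2), 0.00270 to 0.143 (HBG1) and 0.0110 to 0.353 (HBZ), and 7, 6, 6 and 4 of 8 passed.

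HBZ also rose over the 4 groups by 0.51 (adjusted p = 0.0252), lost without sgGal4 replicate 1 (0.0896) or 2 (0.131), enCRISPRi-LK replicate 2 (0.0568) or enCRISPRi-KL replicate 2 (0.0563), and 3 of 7 other settings passed (0.0123 to 0.244). Between enCRISPRi-LK and enCRISPRi-KL it was -0.93 (adjusted p = 0.0131), lost without enCRISPRi-LK replicate 1 (0.131) or 2 (0.106) or enCRISPRi-KL replicate 1 (0.0755) or 2 (0.184), and 5 of 8 passed (0.00376 to 0.241). HBG2 in the same comparison was 0.80 (adjusted p = 0.0485), kept without either sgGal4 replicate and lost without dCas9-KRAB replicate 1 (0.0610) or 2 (0.0602), dCas9-LSD1 replicate 1 (0.0666) or 2 (0.0638), enCRISPRi-LK replicate 1 (0.190) or 2 (0.428), and enCRISPRi-KL replicate 1 (0.241) or 2 (0.241), and 2 of 8 passed (0.0309 to 0.332). The F test called HBE1 (8.21e-06), HBG2 (0.000242), HBZ (0.000583), HBG1 (0.00710) and HEMGN (0.0175). The HEMGN call there was lost without dCas9-LSD1 replicate 1 (0.0597) or 2 (0.0627), enCRISPRi-LK replicate 2 (0.0660) or enCRISPRi-KL replicate 2 (0.0534), and the others were kept with each library left out. Without a trend the F test called neither HBG2 (0.0711, range over the settings 2.78e-05 to 0.0711), HBZ (0.103, 9.44e-05 to 0.103), HBG1 (0.116, 0.00199 to 0.116) nor HEMGN (0.150, 0.00521 to 0.150), and without a filter neither HBG1 (0.0637) nor HEMGN (0.0514).

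GP1BB, a platelet glycoprotein gene, was at 62.2 and 73.0 TPM with sgGal4, 101 and 109 with dCas9-KRAB, 59.9 and 66.2 with dCas9-LSD1, 58.1 and 67.1 with enCRISPRi-LK, and 56.3 and 51.8 with enCRISPRi-KL. The difference with dCas9-KRAB from sgGal4 did not pass (0.63 on the log2 scale, adjusted p = 0.110 by limma). TUBB1 was at 3.20 and 4.41 TPM with sgGal4 and 1.96 and 1.23 with dCas9-KRAB (-0.89, adjusted p = 0.319 by limma). With enCRISPRi-LK it was at 1.14 and 1.34 TPM (-1.09, adjusted p = 0.237 by limma). TUBB1 was at 4.63 and 2.86 TPM with dCas9-LSD1 and 4.75 and 3.37 with enCRISPRi-KL. ITGA2B was near 0 with sgGal4 and dCas9-KRAB, at 0.93 and 0.23 against 1.23 and 0.00 TPM (-0.05, interval -1.18 to 1.09, adjusted p = 0.979 by limma). It was at 0.25 and 0.22 TPM with dCas9-LSD1, 0.80 and 0.60 with enCRISPRi-LK, and 4.81 and 1.83 with enCRISPRi-KL. The 10 granulocyte and monocyte markers summed to 1.17 to 10.8 TPM, LYZ was the most abundant at 3.20 TPM, and MPO and ELANE were at 0 in every library. The 7 lymphocyte markers summed to 1.65 to 33.6 TPM, with CD3E, CD2, CD79A and MS4A1 at 0 in every library. CD3D made up nearly all of that sum, at 26.1 and 33.6 TPM in the sgGal4 libraries and 1.65 to 21.3 TPM in the other 8. The part of these markers in the differences of the factors was not tested.

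Zeros were more frequent on the X chromosome. Of its 732 listed genes, 396 (54.1%) were at 0 in all 10 libraries, against 4418 of 17064 (25.9%) on the autosomes. GATA1, HDAC6, WAS and SUV39H1 were among those at 0, and PQBP1, GRIPAP1 and TFE3, also within 250 kb of GATA1, were above 0.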
